A study of Mus musculus with 8 samples.

Results

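The genes described here make ubiquinone, build iron-sulfur clusters and assemble complexes II, III and IV and the ATP synthase of mitochondria. They were taken by symbol from a fixed list of 43 names, each of which matched 1 of the 25655 gene rows in the count table. The list was chosen with earlier results of these data known. Gene expression was measured in the gastrocnemius, a calf muscle, of wild-type male mice at day 4, in 5 control libraries and 3 septic libraries. Controls had been given 10% glycerol and septic mice cecal slurry, a suspension of gut contents that produces polymicrobial sepsis. Strain and age are not given in the sources used here, and the labels do not say that each library came from a separate animal, so p-values measure the spread between these libraries.

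Ubiquinone is the lipid that carries electrons from complexes I and II and from several other dehydrogenases to complex III. It is made in the inner mitochondrial membrane from a ring and a long isoprenoid tail by a set of COQ proteins that work as a complex. Iron-sulfur clusters are built on a scaffold from the sulfur of cysteine and then passed to enzymes such as aconitase and the respiratory complexes. Assembly factors insert haem, copper, flavin and iron-sulfur groups into the respiratory complexes or hold unfinished subunits, and are not part of the finished enzymes. Muscle depends heavily on these enzymes, and inherited defects in many of these genes cause muscle and brain disease.

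Libraries held 3086277 to 4016329 reads in controls and 3337851 to 3765726 in sepsis. Reads of mitochondrially encoded genes made up 21.7% to 26.7% of control libraries and 12.6% to 16.9% of septic ones. Septic libraries differed from each other more than controls did, with a chi-square per degree of freedom of 11.0 to 26.3 against 2.04 to 6.86. Skeletal muscle markers were abundant in every library, so the tissue label held, and their summed level was 208250 to 242240 CPM (counts per 1000000 reads, with library sizes scaled by the trimmed mean of M-values, TMM) in controls and 108160 to 140460 in sepsis. The summed level of 7 macrophage and leukocyte markers was 53.5 to 139 CPM in controls and 223 to 376 in sepsis, and that of 7 neutrophil markers 0.301 to 1.27 and 61.7 to 141. That of 7 endothelial markers was 152 to 157 and 154 to 242, with 4 of 7 higher and 1 lower. Of the skeletal muscle markers 8 of 8 were lower. Of the macrophage and leukocyte markers 3 of 6 tested were higher, and of the neutrophil markers 3 of 3 tested. Fibroblast markers summed to 1320 to 2829 CPM in controls and 286 to 418 in sepsis, with 7 of 7 lower. Schwann cell markers, 4 of 5 lower, summed to 79.9 to 169 and 40.2 to 56.6 CPM, and smooth muscle markers, 3 of 6 lower, to 266 to 333 and 193 to 209. Their part in the results below was not tested, and in bulk muscle fewer cells of a type and less RNA per cell cannot be told apart.

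In septic muscle 21 of these genes fell, and the 4 that rose included the pair of kinase-like genes of the ubiquinone pathway, Coq8a and Coq8b. Coq8b had enough reads for testing only in septic libraries, so it could enter the test only by being high there. Enough reads for edgeR's quasi-likelihood test, over 5 controls and 3 septic libraries, were found for 42 genes. Of these 21 fell, 4 rose and 17 missed the threshold, an adjusted p of 0.05 after Benjamini-Hochberg correction, which 50.4% of all genes passed. The 21 that fell make up 50% of the 42, where 25.2% of all 9810 genes tested fell. The 4 that rose make up 9.52%, where 25.2% of all genes tested rose. The median log2 fold change, sepsis minus control, was -0.49 over the 42 and 0.01 over all genes tested. Of the 21 decreases, 8 reached 2-fold. Septic and control values were fully separated in 22 genes with lower and 3 with higher septic values, the latter including Coq8b. Such separation was seen in 24.3% and 23.1% of all genes tested, or 47.5% in either direction.

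The scaling between libraries set how many of these genes were counted in each direction. Scaled by library totals, without TMM, 7 passed as higher and 13 as lower, beside 43.4% and 14.1% of all genes tested. The median of all genes then moved from 0.01 to 0.43, and that of the 42 genes from -0.49 to -0.072. Relative to the median of all genes the 42 stood at -0.50 under either scaling, and 37 of them lay below that median in each case. A change of scaling moves every gene by nearly the same amount, so this sameness is built in and adds no support.

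**Figure D1:**
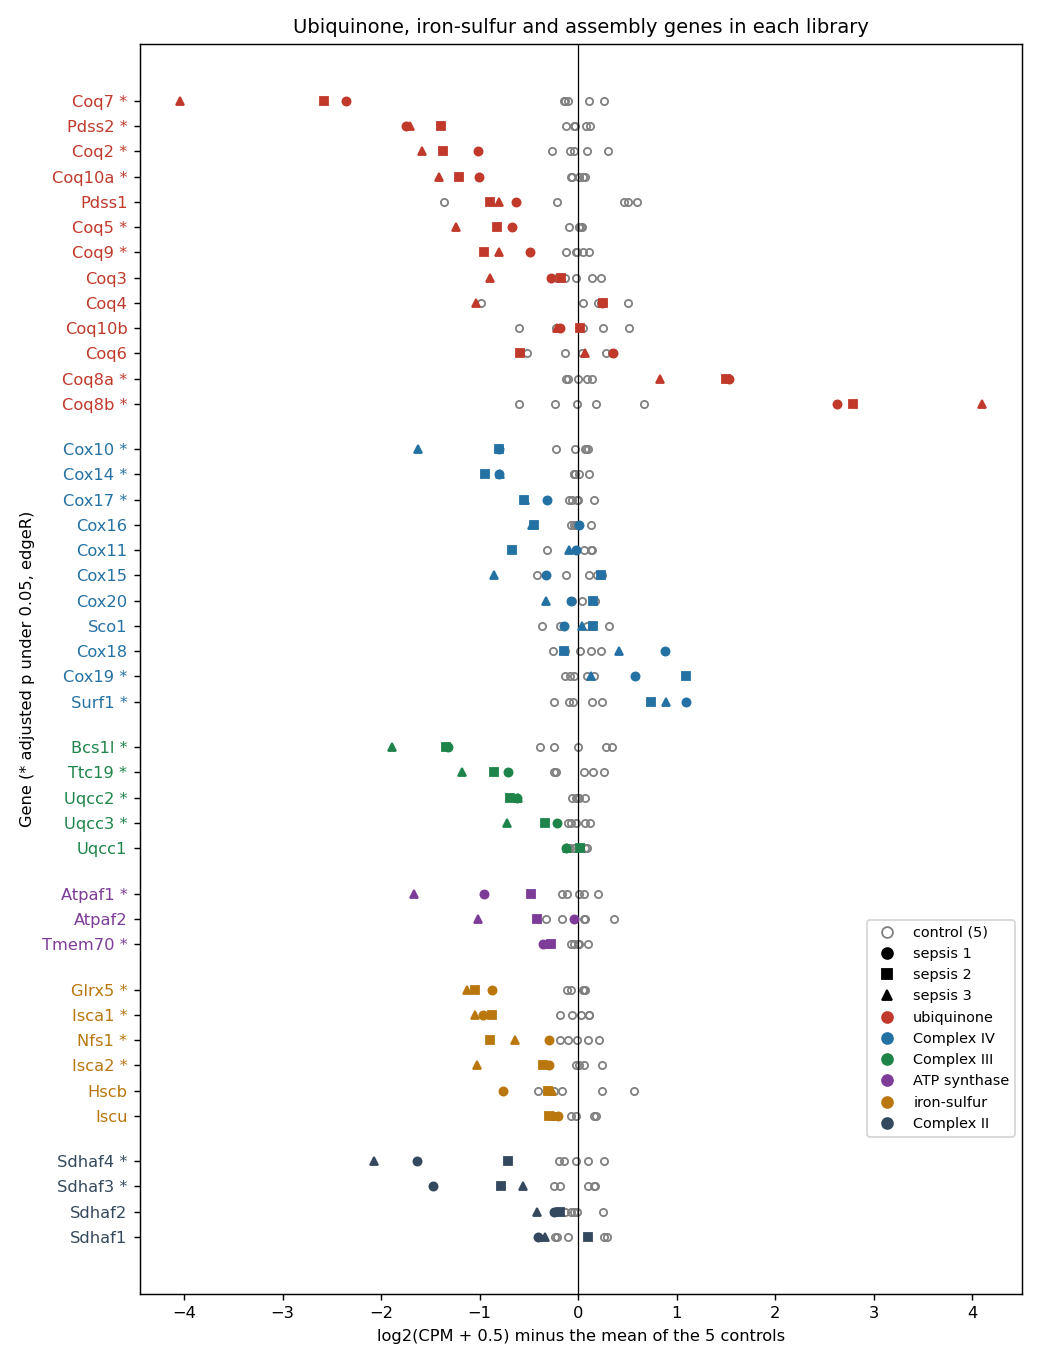
Each row is 1 of the 42 tested genes and each point 1 library, placed by log2(CPM + 0.5) minus the mean of the 5 controls; open grey points are controls, and filled circles, squares and triangles are septic libraries 1, 2 and 3, coloured by function. Stars mark the 25 genes past the threshold. Septic points lie left of the controls for most genes, with Coq8a, Coq8b and Surf1 to the right, and the triangle of sepsis 3 is the leftmost septic point in 23 of 42 rows.

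Among septic libraries, sepsis 3 had the lowest value in 23 of the 42 genes and the highest in 5. Sepsis 1 had the highest value in 21. The median of the 42 genes against the control mean was -0.32 in sepsis 1, -0.46 in sepsis 2 and -0.68 in sepsis 3. Without sepsis 3, 4 of the genes rose and 18 fell, and their median was -0.36, beside 0.0023 for all genes tested. The shares of all genes that passed in that fit are not given here.

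In the ubiquinone pathway, 2 of 13 genes rose and 6 fell, with a median of -0.74 on the log2 scale. These are 15.4% and 46.2%, beside 25.2% of all genes tested in each direction. The tail genes come first. Pdss2 encodes a subunit of the polyprenyl diphosphate synthase that makes the isoprenoid tail, and its control libraries 1 to 5 held 17.5, 20.1, 18.7, 18.4 and 20.7 CPM. Its septic libraries 1 to 3 held 5.32, 6.93 and 5.48 CPM, all below every control. Pdss2 (ENSMUSG00000038240) fell 3.20-fold, with a log2 fold change of -1.68 (SE 0.19, edgeR adjusted p = 9.79e-06). Its partner subunit Pdss1 had few reads, with 5.27, 5.65, 3.01, 1.08 and 5.10 CPM in controls and 2.13, 1.68 and 1.83 in sepsis. Its log2 fold change of -1.11 (SE 0.45) missed the threshold at an edgeR adjusted p of 0.0561 (0.00944 to 0.210 over its alternatives), and its value in control 4 lay below all septic values. It passed without control 4, with -1.33. Pdss1 shares exon sequence at its 3′ end with Abi1 on the opposite strand, whose log2 fold change was 2.50.

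Coq2 joins the tail to the ring precursor. It stood at 24.1, 28.2, 31.0, 36.2 and 27.4 CPM in controls and 14.1, 10.9 and 9.36 CPM in sepsis, and the groups did not overlap. Coq2 fell 2.57-fold, with a log2 fold change of -1.36 (SE 0.19, edgeR adjusted p = 6.91e-05).

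The steps that modify the ring were uneven. Coq7 encodes the hydroxylase of a late ring step, and it had the largest decrease of the 42 genes. Its controls held 51.6, 67.8, 52.7, 61.1 and 51.3 CPM, and the septic libraries 10.6, 9.03 and 2.97. The highest septic value was far below the lowest control, and sepsis 3 was lowest. Coq7 (ENSMUSG00000030652) fell 7.57-fold, with a log2 fold change of -2.92 (SE 0.29, edgeR adjusted p = 9.66e-06) that ranged from -3.23 to -2.53 when single libraries were left out. The methyltransferase gene Coq5 held 99.1, 98.6, 101, 101 and 92.4 CPM in controls and 61.4, 55.2 and 41.3 in sepsis. Coq5 fell 1.87-fold with no overlap (edgeR adjusted p = 0.000117). The methyltransferase gene Coq3 and the monooxygenase gene Coq6 did not pass. Coq3 had a log2 fold change of -0.44 (SE 0.21) and Coq6 one of -0.05 (SE 0.27).

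Coq8a and Coq8b encode members of an atypical kinase family that act as ATPases and support the COQ complex. Coq8a (ENSMUSG00000026489) held 136, 155, 161, 134 and 146 CPM in controls and 424, 415 and 260 CPM in sepsis. Every septic value was above every control, with sepsis 3 the lowest of the 3. Coq8a rose 2.50-fold, with a log2 fold change of 1.32 (SE 0.15, edgeR adjusted p = 9.61e-06). Coq8b (ENSMUSG00000003762) had 8, 2, 4, 4 and 3 reads in controls and 38, 54 and 127 in sepsis, or 2.22, 0.628, 1.20, 1.45 and 0.956 CPM against 10.1, 11.3 and 29.0. Here sepsis 3 was the highest library. Coq8b rose 12.6-fold, with a log2 fold change of 3.65 (SE 0.44, edgeR adjusted p = 2.69e-05), which was 3.01 without sepsis 3. No control library reached the level that the expression filter asks for, so Coq8b was tested only because its septic libraries did. The last exon of Coq8a overlaps that of Cdc42bpa on the opposite strand, which had 0.15 (SE 0.17), and that of Coq8b overlaps the antisense gene Gm15567. Cox15, Cox11 and Sdhaf1 likewise share exon sequence near their 3′ end with Entpd7, Tom1l1 and E130208F15Rik on the opposite strand. Since the strand setting of the counting is not given, the reads of such partners cannot be told apart, and their counts are uncertain.

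**Figure D2:**
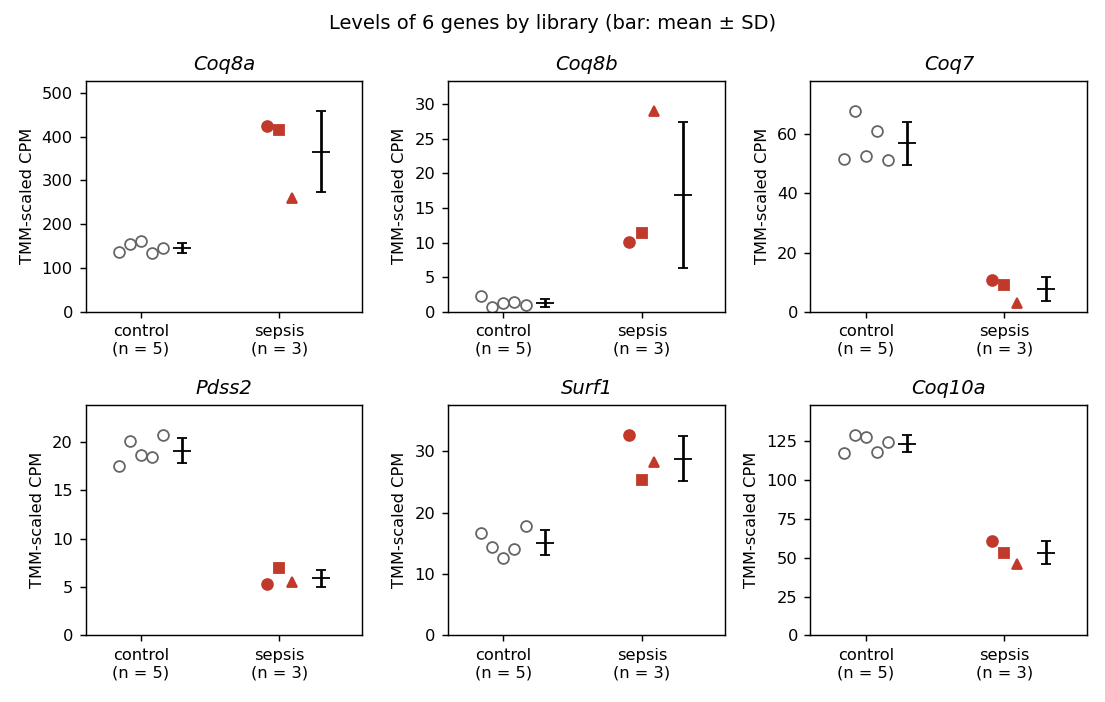
TMM-scaled CPM of 6 genes in each of 5 control libraries (open points) and 3 septic libraries (circle, square and triangle for sepsis 1, 2 and 3), with bars for the mean ± SD and all axes starting at 0. Coq8a, Coq8b and Surf1 are higher in all 3 septic libraries than in any control, and Coq7, Pdss2 and Coq10a lower.

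The other scaffold genes did not follow Coq8a and Coq8b. Coq9 encodes a lipid-binding protein that partners COQ7. It held 105, 110, 114, 97.3 and 105 CPM in controls and 75.5, 54.4 and 60.7 in sepsis. Coq9 fell 1.67-fold (log2 fold change -0.74, SE 0.13, edgeR adjusted p = 0.000362). Coq4, a further organiser of the complex, had 3 to 14 reads per library and a log2 fold change of -0.18 (SE 0.47).

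The Coq10 genes encode START-domain proteins that bind ubiquinone and are needed for its use in respiration. Coq10a held 117, 129, 128, 118 and 124 CPM in controls and 60.9, 52.9 and 46.1 in sepsis, with no overlap. Coq10a fell 2.31-fold, with a log2 fold change of -1.21 (SE 0.12, edgeR adjusted p = 4.25e-06). Its paralog Coq10b held 7.77, 4.08, 5.42, 9.40 and 6.69 CPM in controls and 5.59, 6.51 and 5.48 in sepsis. The Coq10b values overlapped, and its log2 fold change of -0.18 (SE 0.28) did not pass.

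Reads of the pathway shifted towards 1 gene. Coq8a took 22.2% to 25.1% of the reads of the 13 ubiquinone genes in control libraries and 60.9%, 64.2% and 54.1% in sepsis 1, 2 and 3. These are shares of reads within each library and need no scaling between libraries. Per 1000000 library reads, the other 12 genes summed to 407 to 444 in controls and 306, 298 and 256 in sepsis. With Coq8a included the sum was 536 to 585 in controls and 784, 834 and 558 in sepsis, so sepsis 3 then lay within the control range. With TMM scaling the order of the libraries differs. All 13 genes then summed to 597 to 646 CPM in controls and 696, 646 and 480 in sepsis 1, 2 and 3, which puts sepsis 2 at the top of the control range and sepsis 3 below it. The other 12 genes summed to 457 to 491 CPM in controls and 272, 231 and 220 in sepsis, lower in every septic library under either scaling.

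**Figure D3:**
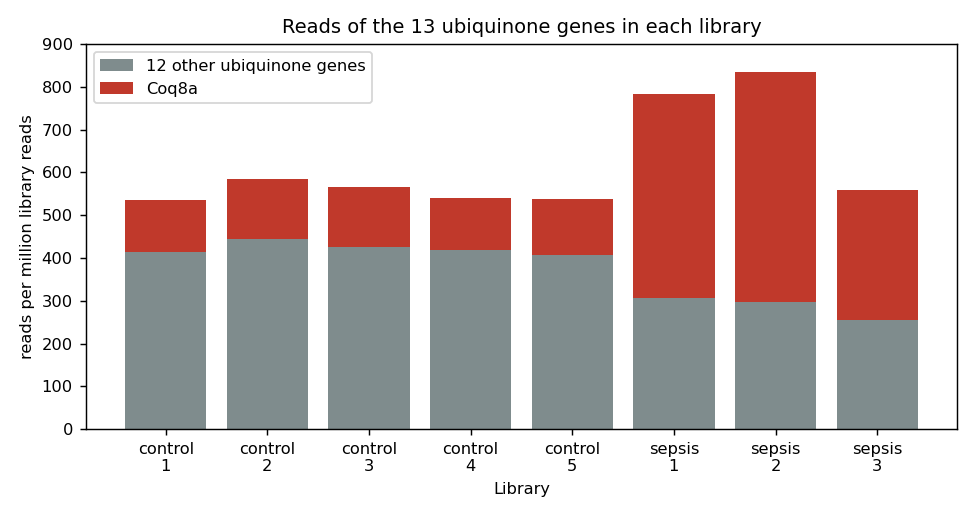
Stacked bars give the reads of the 13 ubiquinone genes per 1000000 library reads in each of the 8 libraries, with Coq8a in red and the other 12 genes in grey. The grey part is 407 to 444 in controls and 256 to 306 in sepsis, while the red part is larger in each septic library than in any control.

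Complex IV factors went both ways, in shares near those of all genes tested. Of 11 tested, 2 rose (18.2%) and 3 fell (27.3%), beside 25.2% of all genes in each direction. Their median was -0.27. Under library totals 4 passed as higher and 2 as lower, beside 43.4% and 14.1% of all genes tested. Cox10 and Cox15 act in sequence to turn haem b into the haem a of complex IV. Cox10 held 78.3, 96.7, 89.7, 95.8 and 98.5 CPM in controls and 52.1, 52.3 and 29.2 in sepsis. The groups did not overlap, and Cox10 fell 2.06-fold, with a log2 fold change of -1.04 (SE 0.18, edgeR adjusted p = 0.000355). Cox15 held 18, 23.5, 22.6, 21.3 and 14.7 CPM in controls and 15.7, 23.3 and 10.7 in sepsis. Its log2 fold change of -0.27 (SE 0.24) did not pass, at an edgeR adjusted p of 0.379 (0.0488 to 0.937 over its alternatives), and it passed without sepsis 2 with -0.60.

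Surf1, whose protein helps place haem a in the catalytic subunit, went up. Its controls held 16.7, 14.4, 12.6, 14.1 and 17.8 CPM and its septic libraries 32.7, 25.4 and 28.3. No septic value reached down to the controls. Surf1 (ENSMUSG00000015790) rose 1.90-fold, with a log2 fold change of 0.92 (SE 0.17, edgeR adjusted p = 0.000446).

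Copper reaches complex IV through small proteins of the intermembrane space. Cox17, the chaperone that hands copper on, held 149, 143, 148, 140 and 167 CPM in controls and 119, 101 and 103 in sepsis. Cox17 fell 1.39-fold (log2 fold change -0.47, SE 0.11, edgeR adjusted p = 0.00327), and under library totals it had -0.06 and no call. Cox19, a related copper protein, held 14.2, 15.1, 17.5, 16.6 and 14.7 CPM in controls and 23.4, 33.8 and 17.1 in sepsis, and sepsis 3 lay within the control range. Cox19 rose 1.59-fold (log2 fold change 0.67, SE 0.21, edgeR adjusted p = 0.0157, 0.00111 to 0.114 over its alternatives), and the call was lost without sepsis 2, where it had 0.38.

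The metallochaperone gene Sco1 held 6.66, 6.91, 7.83, 4.70 and 5.42 CPM in controls and 5.59, 6.93 and 6.39 in sepsis. Its groups overlapped, with means of 6.30 CPM in each. Cox11, which serves the other copper centre, had a log2 fold change of -0.28 (SE 0.24), and Cox16, which links copper loading to the second core subunit, -0.29 (SE 0.14). Neither passed, although Cox16 did without sepsis 1 at -0.47, and with upper-quartile scaling or a minimum count of 30 at -0.34 in each. Its last exon overlaps the read-through gene Gm20498, whose log2 fold change was -2.35. Sco2 had 0 reads in all 8 libraries, which allows up to 0.187 CPM over all controls and 0.233 over all septic libraries for counting error only, from a limit of 3 reads. Its 3′ end lies inside exons of Tymp on the same strand, which also had 0 reads, and of Ncaph2 on the opposite strand, which had 839.

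Cox14, which helps the synthesis of the first core subunit, held 131, 131, 132, 146 and 136 CPM in controls and 77.4, 70.2 and 78.1 in sepsis. Cox14 fell 1.80-fold with no overlap (log2 fold change -0.85, SE 0.11, edgeR adjusted p = 2.73e-05). Cox20 and Cox18, which act on the second core subunit, had -0.07 (SE 0.13) and 0.44 (SE 0.26). Neither passed with TMM scaling, but with library totals alone both were higher past the threshold, at 0.36 and 0.84. Cox18 also passed without sepsis 2.

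Complex III factors fell in 4 of 5 cases, or 80%, where 25.2% of all genes tested fell, with a median of -0.64. Bcs1l encodes the ATPase that inserts the Rieske iron-sulfur protein. It held 17.2, 10.7, 18.1, 14.1 and 11.8 CPM in controls and 5.32, 5.25 and 3.42 in sepsis. Bcs1l fell 3.08-fold with no overlap, with a log2 fold change of -1.62 (SE 0.26, edgeR adjusted p = 0.000175). Ttc19, which acts on complex III after that step, held 45.2, 39.2, 32.2, 41.9 and 31.9 CPM in controls and 22.9, 20.6 and 16.4 in sepsis. Ttc19 fell 1.91-fold (edgeR adjusted p = 0.000577).

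Uqcc1, Uqcc2 and Uqcc3 encode proteins that help make and stabilise cytochrome b. Uqcc2 held 135, 142, 137, 130 and 134 CPM in controls and 88.0, 84.0 and 88.6 in sepsis. The septic values were close together and below every control, and Uqcc2 fell 1.56-fold (log2 fold change -0.64, SE 0.10, edgeR adjusted p = 0.000174), with -0.23 and no call with library totals alone. Uqcc3 held 55.0, 53.0, 47.0, 49.5 and 47.8 CPM in controls and 43.4, 39.9 and 30.4 in sepsis. Uqcc3 fell 1.33-fold (log2 fold change -0.42, SE 0.14, edgeR adjusted p = 0.0253, 0.0128 to 0.987 over its alternatives), and the call was lost without sepsis 3 (-0.28), control 1 (-0.39) or control 2 (-0.40), with no filter (-0.38) and with library totals alone (0.00). Uqcc1 stood at 61.2 ± 3.30 CPM in controls (n = 5) and 58.2 ± 3.30 in sepsis (n = 3), and its log2 fold change of -0.07 (SE 0.11) became 0.35, past the threshold, with library totals alone.

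The ATP synthase factors gave 2 decreases in 3 genes, where 25.2% of all genes tested fell. Atpaf1 and Atpaf2 chaperone the beta and alpha subunits of the catalytic head. Atpaf1 held 30.3, 38.0, 33.1, 34.4 and 29.3 CPM in controls and 16.8, 23.5 and 10.0 in sepsis. The groups did not overlap but the septic values spread widely, and Atpaf1 fell 1.96-fold (log2 fold change -0.97, SE 0.23, edgeR adjusted p = 0.00300), with -0.54 and no call with library totals alone. Atpaf2 held 4.72, 5.34, 6.32, 7.96 and 6.37 CPM in controls and 5.85, 4.41 and 2.74 in sepsis, and its log2 fold change of -0.50 (SE 0.30) did not pass. Tmem70, which supports the membrane ring, held 39.1, 39.9, 44.3, 41.2 and 41.4 CPM in controls and 31.9, 33.8 and 33.1 in sepsis. Tmem70 fell 1.25-fold (log2 fold change -0.32, SE 0.12, edgeR adjusted p = 0.0399, 0.0158 to 0.510 over its alternatives). That call was lost without any 1 of control 2, 3, 4 or 5 or sepsis 1 or 3, where it lay between -0.34 and -0.30, in DESeq2 and with no filter, and with library totals alone, where it had 0.10.

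Iron-sulfur genes fell in 4 of 6 cases and none rose, beside 25.2% of all genes tested in each direction, with a median of -0.58. With library totals alone 2 were lower and 0 higher, beside 14.1% and 43.4% of all genes tested. Nfs1 is the cysteine desulfurase that supplies the sulfur. It held 29.4, 27.6, 31.9, 26.0 and 34.4 CPM in controls and 24.2, 15.8 and 18.9 in sepsis. Nfs1 fell 1.53-fold with no overlap (log2 fold change -0.61, SE 0.17, edgeR adjusted p = 0.00963), a call lost with library totals alone at -0.20. Iscu, the scaffold on which clusters form, stood at 61.0 ± 7.52 CPM in controls (n = 5) and 51.0 ± 1.76 in sepsis (n = 3), with a log2 fold change of -0.26 (SE 0.13) that did not pass. The co-chaperone gene Hscb, which helps release clusters from that scaffold, had -0.51 (SE 0.31), also without passing.

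Glrx5, a glutaredoxin that carries clusters from the scaffold, held 102, 91.3, 94.0, 104 and 103 CPM in controls and 53.5, 47.7 and 45.0 in sepsis. Glrx5 fell 2.03-fold with no overlap, with a log2 fold change of -1.02 (SE 0.12, edgeR adjusted p = 1.21e-05). Isca1 and Isca2 act later, in making larger clusters. Isca1 held 109, 95.7, 102, 88.2 and 108 CPM in controls and 51.1, 54.4 and 48.2 in sepsis. Isca1 fell 1.96-fold (log2 fold change -0.97, SE 0.12, edgeR adjusted p = 2.24e-05). Isca2 held 18.9, 22.3, 18.4, 15.2 and 19.4 CPM in controls and 15.2, 14.5 and 8.90 in sepsis, so that control 4 and sepsis 1 nearly met. Isca2 fell 1.47-fold (log2 fold change -0.55, SE 0.21, edgeR adjusted p = 0.0389, 0.0260 to 0.617 over its alternatives). Its call was lost without control 1, 2, 3 or 5, between -0.57 and -0.49, without sepsis 3 at -0.35, with no filter at -0.52 and with library totals alone at -0.13.

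The 4 complex II factors include 2 that fell, or 50%, where 25.2% of all genes tested fell. Sdhaf4 helps the flavin-bearing subunit join its iron-sulfur partner. It held 23.9, 33.0, 29.5, 27.1 and 24.9 CPM in controls and 8.51, 16.6 and 6.16 in sepsis. Sdhaf4 fell 2.62-fold with no overlap (log2 fold change -1.39, SE 0.27, edgeR adjusted p = 0.000881). Sdhaf3, which protects the iron-sulfur subunit together with Sdhaf1, fell 1.94-fold (log2 fold change -0.96, SE 0.27, edgeR adjusted p = 0.00944), a call lost with library totals alone at -0.53. Sdhaf1 had -0.22 (SE 0.20) and Sdhaf2, needed to attach the flavin, -0.29 (SE 0.16). Neither passed, although the Sdhaf2 values did not overlap, at 21 to 27.5 CPM in controls and 17.1 to 20.2 in sepsis.

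Partners within this group were also compared inside each library, where no scaling between libraries is needed. The log2 ratio of the reads of 6 pairs, with 0.5 added to each count, was compared between groups with an exact permutation test, two-sided, whose 56 splits allow no p below 0.0179. P-values were adjusted over the 6 pairs. No pair passed an adjusted p of 0.05. The ratio of Coq8a to Coq8b was 6.75 ± 0.678 in controls (SD, n = 5) and 4.57 ± 1.23 in sepsis (n = 3), a difference of -2.18 (exact p = 0.0179, adjusted p = 0.0536). All 3 septic libraries were below all controls, and the difference was -1.48 without sepsis 3. Pairs were compared only where both genes were tested, and Coq8b was tested only through its septic libraries. This pair could therefore enter only because Coq8b was high in sepsis, and nothing is read from its p-value or separation. For Coq10a to Coq10b the difference was -1.08 (exact p = 0.0357, adjusted p = 0.0536), and for Cox10 to Cox15 it was -0.76 (exact p = 0.0179, adjusted p = 0.0536), with the septic libraries below all controls in each. Coq8a, Coq8b, Cox15 and, in a pair below, Pdss1 are among the genes whose reads cannot be told apart from those of an overlapping gene.

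Isca1 to Isca2 differed by -0.39 (exact p = 0.0357, adjusted p = 0.0536), and its septic and control ratios overlapped in sepsis 3. Without sepsis 3 that difference was -0.59, and without sepsis 1 it was -0.25. The ratios of Atpaf1 to Atpaf2 and of Pdss1 to Pdss2 overlapped, with differences of -0.51 and 0.80 and adjusted exact p-values of 0.129 and 0.179. The Atpaf1 to Atpaf2 difference was -0.30 without sepsis 1, and that of Pdss1 to Pdss2 0.42 without control 4. The Sco1 to Sco2 ratio could not be formed, since Sco2 had no reads.

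**Figure D4:**
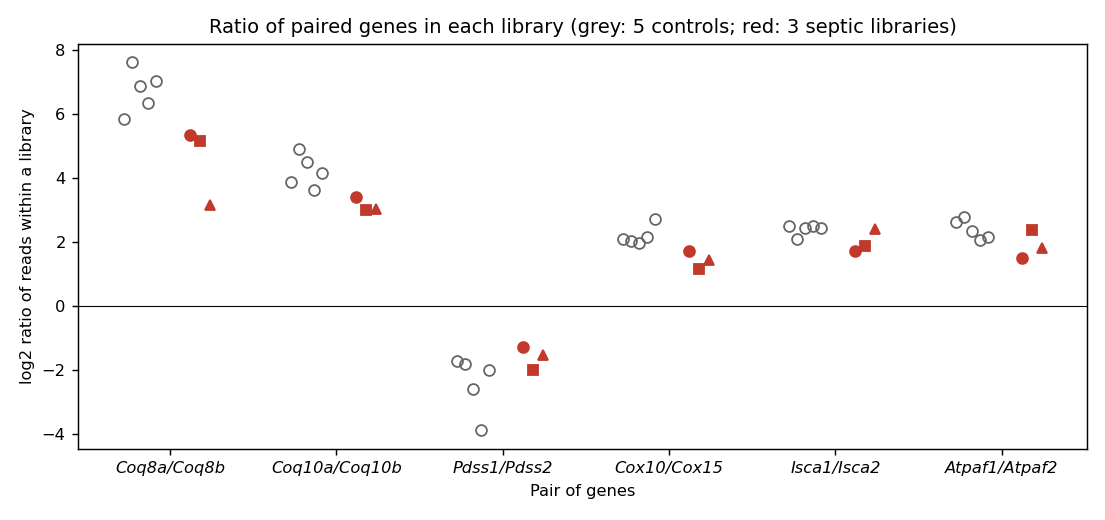
The log2 ratio of reads of 6 gene pairs within each library, with open grey points for 5 controls and red circles, squares and triangles for sepsis 1, 2 and 3. The septic ratios of Coq8a to Coq8b, Coq10a to Coq10b and Cox10 to Cox15 are below all controls, and the other 3 pairs overlap. Coq8b was tested only through its septic libraries, so its pair could enter only by Coq8b being high there.

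Assembly factors can be set beside the subunits of the enzymes they build, although the difference between the lists was not tested. Of all genes tested 25.2% fell. In complex II all 4 subunit genes fell, Sdhb 2.82-fold, with a median log2 fold change of -1.14 beside -0.62 for its factors. Of 9 complex III subunit genes 7 fell, Cyc1 4.60-fold, with a median of -0.74 beside -0.64. Among 13 nuclear subunit genes of complex IV, 11 fell, Cox7a1 3.21-fold, and Cox8a rose with 0.54 (no call without sepsis 1), with a median of -0.68 beside -0.27, and of 14 of the ATP synthase 13 fell, Atp5g3 2.53-fold, with -0.96 beside -0.50. The 19 other complex IV assembly genes described below had a median of -0.97, under that of the subunits. The ATP synthase factors compared here are Atpaf1, Atpaf2 and Tmem70 alone. The further ATP synthase genes Tmem242, Fmc1 and Atpif1, also described below, had -1.26, -1.16 and -0.69. With library totals alone the subunits gave 4, 5, 8 and 11 lower and 0, 0, 2 and 1 higher, in the same order. Of all genes tested 14.1% were then lower and 43.4% higher.

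**Figure D5:**
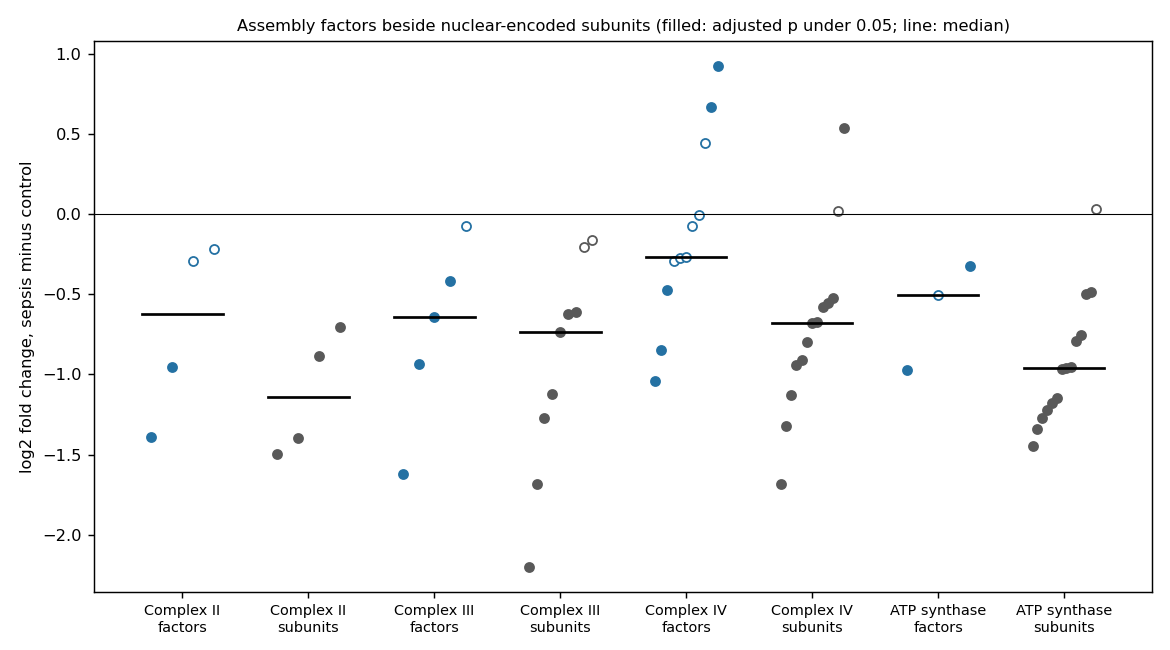
Log2 fold changes, sepsis minus control, of assembly factors (blue) and nuclear-encoded subunits (grey) of complexes II, III, IV and the ATP synthase, each point 1 gene, filled where the edgeR adjusted p is under 0.05, with a line at the median. The 11 complex IV factors among the 43 genes reach from -1.04 for Cox10 to 0.92 for Surf1, and their median of -0.27 is above that of their subunits at -0.68. Not drawn are the 19 other complex IV assembly genes, with a median of -0.97, and the 6 other complex II, III and V assembly genes, with -0.93.

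The remaining genes of the same pathways were read from fixed lists, chosen with earlier results of these data known. Their counts stand beside 25.2% of all genes tested in each direction. With library totals alone those shares were 43.4% higher and 14.1% lower. Of 18 other mitochondrial iron-sulfur genes tested, 5 fell (27.8%) and 4 rose (22.2%), near the shares of all genes. Without sepsis 1 only 2 rose, and without sepsis 3 it was 6. The median was -0.12, and 4 were lower and 8 higher with library totals alone. Ndufab1, the acyl carrier protein that also holds the desulfurase complex together, fell 2.47-fold, and Bola3, a late carrier, fell 1.94-fold. Slc25a28, the iron importer mitoferrin-2, rose 4.36-fold. The edgeR adjusted p-values of these 3 were 1.39e-06, 1.03e-05 and 0.000307. Of 10 cytosolic iron-sulfur genes 3 rose (30%) and 1 fell (10%, or 2 genes without sepsis 2), or 6 and 0 with library totals alone. Mms19, which delivers clusters to DNA repair enzymes, rose 3.31-fold, Bola2 rose 1.89-fold and the targeting gene Ciao2a fell 1.65-fold (edgeR adjusted p = 2.48e-05, 0.000258 and 0.00287).

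Of 19 other complex IV assembly genes 12 fell and none rose, with a median of -0.97, or 9 lower and 3 higher with library totals alone. Coa5, Cmc2 and Coa3 fell 2.11-fold, 3.49-fold and 2.22-fold (edgeR adjusted p = 6.63e-06, 1.39e-05 and 3.11e-05). Of 6 other complex II, III and V assembly genes 4 fell and none rose, among them the ATP synthase factors Tmem242 and Fmc1, down 2.39-fold and 2.24-fold, and Atpif1, the inhibitor of its hydrolysis, with -0.69.

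On the supply side, haem synthesis genes fell in 5 of 7 cases and none rose, or 4 and 0 with library totals alone, with Cpox, Urod and Fech at -1.22, -1.004 and -0.71 on the log2 scale. The summed level of 5 erythrocyte markers, cells whose precursors make much haem, was 43.1 to 950 CPM in controls and 14.3 to 89.1 in sepsis, with 1 of 4 tested lower, and its part in the haem genes was not tested. In the list of mevalonate and farnesyl diphosphate genes 2 of 8 fell and 1 rose (2 rose without sepsis 1), or 1 and 3 with library totals alone, beside 25.2% of all genes tested in each direction. Fdps, which makes farnesyl diphosphate, fell 2.70-fold and Hmgcs1 1.54-fold. Fdft1, which draws farnesyl diphosphate into sterols, rose 2.64-fold and was the gene counted as higher (edgeR adjusted p = 0.000179, 0.00627 and 0.000306).

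On the user side, 4 of 7 genes that pass electrons to ubiquinone, Etfa and Etfb through Etfdh and the others directly, fell (2 without control 3 or sepsis 3) and none rose, or 2 and 2 with library totals alone. Gpd2, Sqor and Dhodh fell 3.17-fold, 2.45-fold and 2.54-fold, and Etfb had -0.37 (edgeR adjusted p = 0.0473). Etfdh had 0.27 without passing. Of 10 enzymes that carry iron-sulfur clusters or lipoate 8 fell (7 without control 3) and none rose, with a median of -1.02, or 6 and 0 with library totals alone. Both lists stand beside 25.2% of all genes tested in each direction. With library totals alone 14.1% of all genes were lower and 43.4% higher. Those with the smallest p were the complex I subunits Ndufv2, Ndufs1 and Ndufs8 at -1.43, -1.47 and -1.34 on the log2 scale.

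Many of these genes share a start region with a gene on the opposite strand. Of the 43, 16 had a coding gene starting within 1000 bases on the other strand in mouse annotation of the GRCm38 build, and in 12 such couples both genes were tested. These neighbours were looked up after the values had been seen. In 3 of the 12 couples both genes passed the threshold, each time in the same direction. Since 50.4% of all genes tested passed on their own, nothing is read from this count. Coq8b starts beside Itpkc, an inositol trisphosphate kinase gene. Itpkc had 2 reads in control 1, none in the other controls and 56, 17 and 209 in sepsis 1, 2 and 3, so that septic reads exceeded control reads 175-fold after TMM scaling (95% exact interval 48.0 to 1452, for counting error only). Its fitted log2 fold change was 7.12, and 5.83 without sepsis 3. No control reached the 2.77 CPM that the expression filter asks for, so Itpkc, like Coq8b, was tested only through its septic libraries. Sepsis 3 was the highest library for both. Without control 1, the only control with reads, the fitted log2 fold change of Itpkc was 9.32 with an SE of 2.68, and its call was lost at an edgeR adjusted p of 0.0753 (1.72e-05 to 0.0753 over its alternatives).

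Surf1 starts beside Surf2, which held 4.72, 6.91, 7.53, 1.81 and 6.05 CPM in controls and 13.8, 9.66 and 8.22 in sepsis. The Surf2 groups did not overlap, and it rose by a log2 fold change of 0.94 (SE 0.33, edgeR adjusted p = 0.0284), next to 0.92 for Surf1. Its call was lost without control 1 at 0.88 and without sepsis 1 at 0.70. The third couple was Nfs1 and Romo1, a regulator of reactive oxygen species, at -0.61 and -0.31. The Romo1 call (edgeR adjusted p = 0.0244, 0.00675 to 0.316 over its alternatives) was lost without control 2, 3, 4 or 5 or sepsis 2 and with no filter, between -0.30 and -0.26, and with library totals alone, where it had 0.11. In 5 other couples 1 gene passed. Ttc19, Coq9 and Isca2 fell beside Zswim7, Ciapin1 and Npc2, which had 0.12, -0.48 and -0.12 and did not pass. Cox15 did not pass while its neighbour Cutc, a copper homeostasis gene, rose with 0.80, and Cox11 did not pass while Stxbp4 fell by 2.26 on the log2 scale (-2.998 without sepsis 2).

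Start regions were read from a RefSeq table of the GRCm38.p6 build, which held 36 of the 43 genes. To show what stands before the genes with large changes, stretches free of annotated exons are given 5′ to 3′ for the 4 ubiquinone genes in the table with a log2 fold change beyond 1.3 in either direction. Capitals mark a match to CCGGAAG, the core bound by ETS factors such as GABP, or to GCATGCG, a core of the NRF1 site, on either strand.
Coq7, chr7:118533357-118533506, minus strand: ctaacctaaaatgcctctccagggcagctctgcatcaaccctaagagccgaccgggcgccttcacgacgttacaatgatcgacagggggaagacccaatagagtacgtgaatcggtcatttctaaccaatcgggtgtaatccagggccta
Coq8a, chr1:180193486-180193602, minus strand: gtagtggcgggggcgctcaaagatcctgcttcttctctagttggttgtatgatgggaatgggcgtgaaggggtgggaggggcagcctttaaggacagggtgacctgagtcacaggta
Pdss2, chr10:43221336-43221485, plus strand: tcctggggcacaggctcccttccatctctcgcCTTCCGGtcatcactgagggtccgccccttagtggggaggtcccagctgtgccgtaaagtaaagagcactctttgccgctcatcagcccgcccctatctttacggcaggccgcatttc
Coq2, chr5:100674285-100674434, minus strand: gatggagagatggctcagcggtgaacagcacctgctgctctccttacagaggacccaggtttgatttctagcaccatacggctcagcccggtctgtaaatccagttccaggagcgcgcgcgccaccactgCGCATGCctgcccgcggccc

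The Coq8a stretch lies before 1 of its 2 listed starts, and the Coq2 stretch ends 29 bases before its start. Neither the Coq7 nor the Coq8a stretch holds a match, whereas Pdss2 holds an ETS core and Coq2 an NRF1 core. In the whole window, from 250 bases before to 50 after a start, CCGGAAG on either strand was found in 17 of the 36 genes, or 47.2%. The same motif was in 9.93% of all 27025 symbols of the table and in 21.6% of the 7832 whose genes were tested here. Surf1, Cox10, Bcs1l, Nfs1 and Isca1 were among the 17, and so were genes that did not pass, such as Cox15, Cox20 and Coq6. Among the 18 genes that fell and had a window, 8 held it. GCATGCG was in 2 of 36 (5.56%), Coq2 and Ttc19, beside 4.01% of all symbols and 7.89% of those tested. AAGGTCA, a site core of oestrogen-related receptors, was in 4 of 36 (11.1%), Pdss1, Coq10a, Uqcc3 and Isca1, beside 5.38% of all symbols and 3.78% of those tested. The ETS core and the receptor core can overlap by 3 letters. A match is a match of letters only, and no binding was measured here.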

How the data were processed

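Libraries were made from 25 ng of total RNA with a QuantSeq kit, which reads near the 3′ end of polyadenylated transcripts, per the labels' protocols, so counts were not divided by length. The deposited values are whole-number read counts for each gene in each library, not normalized by the authors. The build was GRCm39, per the submitters' processing notes. No aligner, counter, strand setting or annotation release is given in the sources used here. Both members and lists were chosen with earlier results of these data known.

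EdgeR 4.0.16 in R 4.3.3 was fitted to all genes with a minimum count of 10 and total of 15, which kept 9810 genes, with TMM scaling, robust quasi-likelihood F tests, no covariate, and Benjamini-Hochberg adjustment. CPM use TMM-scaled sizes. The SE is the absolute log2 fold change divided by the square root of F. Of the 42 genes tested, 39 passed the filter in every library; Coq8b did so only in sepsis, Pdss1 in 3 controls, and Coq4 in 1 control and 2 septic libraries. Alternatives were other scaling, filters, DESeq2 1.42.0, a replicate block and leaving out each library. Values in every library are given for called genes whose average log2 CPM reached 4, for both genes of a pair, and up to 3 genes per pathway list were named by smallest p; Bcs1l and Sdhaf2 values, Cox8a, Etfa, Etfb, Etfdh, and the neighbours and overlapping genes were added after values were seen. In 1 pathway list a row was set aside because its name could not be tied to the intended gene. The fit was tested on simulated data in which few genes changed, up or down at random. That test does not bear on the choice of scaling in these data, where many genes passed.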

Additional observations from a re-analysis of the deposited data

Results flagged for a closer look

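In 48 sets of 5 control values, 4 had a value standing apart from the other controls, where chance gives about 1 in 20. Control 5 was lowest for Coq5 at 92.4 CPM, against 98.6 to 101 in the other controls. Control 1 was highest for Sdhaf2 at 27.5 CPM, against 21 to 22.9. Control 5 had the highest Cox10 to Cox15 log2 ratio, 2.73 against 1.98 to 2.16. Control 2 had the lowest Isca1 to Isca2 log2 ratio, 2.10 against 2.46 to 2.52.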

How the results depend on the processing

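Of the 25 called genes, 16 kept direction and call under every alternative that tested them. The numbers higher and lower, 4 and 21, were 4 and 18 to 4 and 22 when single libraries were left out. With library totals alone they were 7 and 13, the median of the 42 genes was -0.072, and 25 pathway list genes instead of 9 were higher. Cox20 then had 0.36, Uqcc1 0.35, Uqcc3 0.0031, Tmem70 0.10 and Romo1 0.11. With the replicate number of the titles as a block, 3 of the 42 genes were higher and 18 lower, with a median of -0.47, and 4 pathway list genes were higher and 69 lower. The median of all genes tested was then -0.011. The shares of all genes that passed are not given for the block or for fits without a library. The calls lost with the block were Cox17, Cox19, Uqcc3, Tmem70 and Isca2, with log2 fold changes of -0.45, 0.63, -0.46, -0.32 and -0.65, and those of the neighbours Surf2 and Romo1, with 0.71 and -0.29 (edgeR adjusted p = 0.128 and 0.223). Pdss1 gained a call with -1.27. Deviations of same-numbered libraries correlated at -0.124, 0.0409 and -0.0196, and those of other couples at -0.0923 to 0.129. With so few libraries these values cannot show whether the numbers share more than a label. No paired value of the 6 ratios could pass, since 3 pairs allow no exact p below 0.25; their differences kept their signs. Depth limits Coq4, Pdss1 and Coq8b, with few reads per library.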
